A study of Mus musculus with 6 samples.

Results

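The genes described here are the nuclear-encoded subunits of the mitochondrial respiratory chain and ATP synthase. They were taken from the read count table by symbol: Ndufa, Ndufb, Ndufc, Ndufs, Ndufv or Ndufab with a digit, Sdha to Sdhd, and every symbol that starts with Uqcr, Cox4i, Cox5, Cox6, Cox7, Cox8 or Atp5. The rule found 88 of 40824 genes. Of these, 82 are subunits: 38 of complex I, 4 of complex II, 8 of complex III, 17 of complex IV and 15 of complex V. The other 6 share the naming only: Atp5s, Atp5sl (now named Dmac2, an assembly factor of complex I), Cox7a2l (a factor that joins complexes into supercomplexes) and the pseudogenes Atp5l-ps1, Atp5l-ps2 and Atp5l2-ps.

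The study followed maternal hepatocytes through reproduction. Nuclei of WT female C57BL/6J mice were sequenced with Smart-seq3xpress, a plate method that reads along the whole transcript, in 6 libraries. Stage G0 is day 0 of gestation, G14.5 the day of gestation that its name gives, and P7L is day 7 after birth in lactating mothers. Each stage has 1 library whose label says liver tissue and 1 whose label says perfusion, values below are given in that order, and mating took place at about 8 weeks of age. The labels name no animals, so p-values measure only the spread between these 6 libraries, which may be technical. One protocol text, on collagenase perfusion and hand-picked single hepatocytes, is given for all 6, and how the nuclei were released is not given in the sources used here.

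The respiratory chain sits in the inner mitochondrial membrane. Complexes I and II pass electrons from NADH and succinate to coenzyme Q, complex III passes them to cytochrome c, and complex IV passes them to oxygen. Complexes I, III and IV pump protons, and complex V, the ATP synthase, lets protons flow back to make ATP. Most subunits are nuclear genes, and a few catalytic ones are encoded by mitochondrial DNA, which has no rows in these tables. Hepatocytes depend on the chain for fatty acid oxidation, gluconeogenesis and urea synthesis. Many of the nuclear genes are textbook targets of the transcription factors NRF1, GABP (of the ETS family), ERR alpha and YY1, with the coactivators PGC-1 alpha and PGC-1 beta.

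The NRF1 letters are shown as an example. Like the ETS, YY1 and ERR letters described below, they were more frequent near the starts of these genes than near all starts. RefSeq promoter windows (GRCm38.p6, 250 bases before to 50 after each start) were matched by symbol for 66 of 82 subunits, giving 71 windows. The letters GCGCATG occurred on either strand in 13 of 71 windows (18.3%), against 1284 of 32851 windows of all genes (3.91%) and 6.20% of the windows of tested genes. Below, 1 match per gene is printed for part of these 13 genes, and Atp5l, Ndufa6, Ndufa11, Ndufb8 and Uqcr11 are not shown. Each match is printed 5′ to 3′ on the strand that holds it, with 10 bases on each side and the NRF1 letters in capitals.
Sdhb, chr4:140961208-140961234, minus strand: ggcccgtaggGCGCATGcccactgggc
Cox5b, chr1:36691426-36691452, plus strand: aggcagaactGCGCATGtgcggcgtct
Cox6a1, chr5:115349104-115349130, minus strand: caggaacgggGCGCATGcgcgctctcg
Atp5g2, chr15:102671073-102671099, minus strand: ggctccggccGCGCATGcgcagagcct
Atp5k, chr5:108434433-108434459, minus strand: tttcactgcgGCGCATGcgcctttctg
Ndufa8, chr2:36049329-36049355, plus strand: ggtaccatctGCGCATGcgtctccagc
Ndufb6, chr4:40279482-40279508, minus strand: agagggctttGCGCATGagcagagcct
Uqcrc1, chr9:108936668-108936694, plus strand: actccgctctGCGCATGcgcagcgcgg

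Atp5b, whose reads fell at G14.5, is shown for contrast, since its window held none of the NRF1, ETS, ERR or YY1 letters and 5 copies of CCAAT. The stretch printed is the part before the RefSeq start that lies in no GENCODE M21 exon, on the plus strand, with CCAAT or its reverse complement ATTGG in capitals.
Atp5b, chr10:128083057-128083272: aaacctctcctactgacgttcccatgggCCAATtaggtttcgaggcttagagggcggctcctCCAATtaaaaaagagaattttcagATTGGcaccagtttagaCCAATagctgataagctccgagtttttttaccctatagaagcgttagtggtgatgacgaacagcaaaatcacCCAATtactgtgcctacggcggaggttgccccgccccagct
A match is a run of letters and not a bound site.

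The other motifs were searched in the same windows on both strands. The ETS and GABPA letters CCGGAAG were in 22.5% of the subunits' windows, 15.2% of those of tested genes and 8.86% of all windows, and the YY1 letters AAGATGG in 14.1%, 6.75% and 6.34%. The ERR letters AAGGTCA were in 11.3%, 3.56% and 4.72%, and CCAAT in 42.3%, 37.6% and 37.4%. CCAAT therefore differed least between the subunits and all genes. Windows held more than 1 motif in some genes: that of Sdhb held the NRF1, ETS and CCAAT letters.

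The libraries held 226030591 to 379767336 reads from 184 to 308 nuclei each, 1567 nuclei in all. Hepatocyte markers (Alb, Apoa1, Hnf4a and 7 more) took 1.5% to 1.81% of reads. The next list, of cholangiocyte markers, took 0.0163% to 0.027%, and the Kupffer, endothelial, stellate, T and NK, B, neutrophil and erythroid lists took at most 0.00457%. Lrat, Ms4a1, Retnlg, Ngp and Alas2, of the stellate, B cell, neutrophil and erythroid lists, were at 0 reads. The rest of these lists had reads: 9 of 10 stellate, 6 of 7 B cell, 6 of 8 neutrophil and 7 of 8 erythroid genes. The genes at 0 alone do not show that a cell type was absent. The unit CPM below stands for reads divided by library size after edgeR's trimmed mean of M-values (TMM), and levels between genes are the authors' values per gene length. The lengths behind those values do not match the exon lengths of GENCODE M21 and are not given in the sources used here, so ranks of genes hold for the authors' scale only.

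Short and nested genes limit what the counts can show. The tested members had a median of 1718 exon bases (GENCODE M21), against 4251 for all tested genes, and a median gene span of 7674 against 28021 bases. Of 77 tested members with a length, 54 were short genes, here those with at most 2515 exon bases, the lowest 25% of tested genes. Cox4i1, the main isoform of a large nuclear subunit of complex IV, was listed at 0 reads in every library, as was Ndufa13 of complex I. On GRCm38, Cox4i1 (chromosome 8, 120668222 to 120674207) lies wholly inside the span of Gm20388, and Ndufa13 (chromosome 8, 69894180 to 69902558) inside Yjefn3. Of 1151 protein-coding genes whose whole span is covered by other genes, 960 (83.4%) were at 0 reads, against 2112 of 19364 (10.9%) with span of their own. A 0 for Cox4i1, Ndufa13 or Cox6a2 (inside Itgad on the other strand) therefore cannot be read as absence. Cox8c and Atp5l-ps2 were also listed at 0. How reads that match several genes were treated is not given in the sources used here, so members with processed pseudogene copies are uncertain.

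Among the subunits, Ndufs3, a core subunit of the peripheral arm of complex I, had the highest level on the authors' per-length scale. The G0 libraries gave 57.1 and 72.8, those of G14.5 gave 96.3 and 66.6, and P7L gave 101 and 86.9, in parts per 100000 of the authors' scale. Cox7a2, a small subunit of complex IV, led its complex with 57.3 and 40.0, then 38.5 and 27.6, then 47.9 and 46.4. Ndufs3 was above Cox7a2 in 5 libraries, and in G0 liver tissue they were level.

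Sdhb, the iron-sulfur subunit of complex II, led with 32.3 and 27.3, then 16.1 and 17.2, then 46.3 and 47.6 on the same scale. Uqcr11, a small subunit of complex III, had 21.9 to 35.2, and Atp5l, the g subunit of ATP synthase, 15.6 to 32.7. These 3 leaders overlapped and cannot be ordered. Per kilobase of gene span, which suits reads from introns, Uqcrq of complex III (35.9 CPM per kb) was above Ndufs3 (26.8) and Cox7a2 (22.7), so the order depends on the length used.

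**Figure D1:**
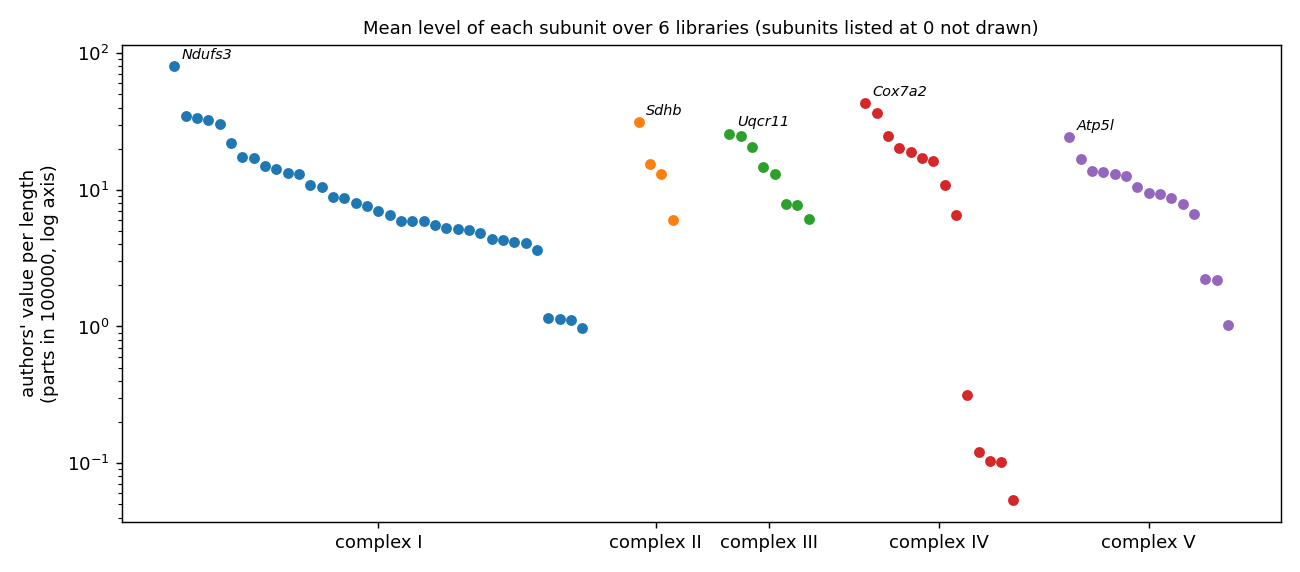
Mean level of each subunit over the 6 libraries on the authors' per-length scale (log axis), grouped by complex and ordered within it; each point is 1 gene and the leader of each complex is named. Ndufs3 lies highest with a mean of 80.1. Under 1 lie 5 complex IV genes, tissue-specific isoforms, and Ndufa4l2, counted here with complex I by its symbol.

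Liver isoforms took nearly all reads of the families that have a heart, muscle, lung or testis form. On the per-length scale Cox7a2 made up 98.5% to 99.8% of the pair Cox7a1 and Cox7a2, Cox6b1 at least 99.4% of its pair with Cox6b2, and Cox8a 98.9% to 99.9% of Cox8a to Cox8c. Cox7b took 99.2% to 99.7% of its pair with Cox7b2. Cox6a1 had all reads of its family, with the nested Cox6a2 listed at 0, and no share can be given for Cox4i1 and Cox4i2. The 3 genes of the c ring, the proton-carrying rotor of ATP synthase, encode the same mature protein. Atp5g3 gave 51% to 67.2% of their level, Atp5g2 26.7% to 39.0% and Atp5g1 6.12% to 12.0%. Ndufa4l2, a hypoxia-inducible relative of Ndufa4, made up 0.683% in G0 liver tissue and 2.89% to 3.72% in the other 5 libraries. Ndufa4 carries a complex I name but is now placed in complex IV. In all counts, medians, sums and figures here, Ndufa4 and Ndufa4l2 are kept with complex I by their symbols.

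G14.5 was compared with G0 to ask how the chain changes by mid to late gestation. Of 78 members with enough reads to test, 5 fell and 1 rose (edgeR quasi-likelihood test with a preparation term, adjusted p under 0.05 by Benjamini-Hochberg over 15015 genes), or 7.69%. The background is 11.9% of all tested genes (6.93% higher, 5.01% lower) and 11.2% of short tested genes, so the share of members called was not above it. The G14.5 libraries lay wholly below those of G0 for 30 members and wholly above for 11, while 28.2% and 27.9% of all tested genes did so. The genes that fell were Sdhb, Atp5b, Atp5c1, Ndufa5 and Atp5sl, and the gene that rose was Sdhc.

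Complex II changed in both directions. Sdhb (chromosome 4, 140961203 to 140979193) had 161 and 105 CPM at G0, then 69.8 and 71.7 at G14.5, then 178 and 197 at P7L. Both G14.5 libraries were below all others. Its log2 fold change at G14.5 against G0 was -0.89 ± 0.21 (SE; n = 2 libraries per stage here and below; edgeR adjusted p = 0.037). Sdhc (chromosome 1, 171127165 to 171150603), a heme-binding membrane anchor of the same complex, had 93.1 and 138 CPM at G0, then 156 and 293 at G14.5, then 124 and 142 at P7L. Both G14.5 libraries lay above the others, and the perfusion library stood far above the rest. The log2 fold change was 0.93 ± 0.19 (edgeR adjusted p = 0.023), and without the G14.5 perfusion library it was 0.67 (adjusted p = 0.147).

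The remaining subunits of complex II were not called. Sdhd, the other anchor, had 24.2 and 36.6 CPM at G0 and 16.5 and 15.1 at G14.5, a log2 fold change of -0.91 ± 0.28 (edgeR adjusted p = 0.0747). Its G14.5 libraries lay below all others. Sdha, the flavoprotein that oxidises succinate, had 157 and 106 CPM at G0 and 105 and 116 at G14.5 (-0.22 ± 0.20, edgeR adjusted p = 0.511), and its groups overlapped. The ratio of Sdhb to Sdhc in CPM went from 1.73 and 0.76 (G0) to 0.447 and 0.245 (G14.5), with 1.44 and 1.38 in the P7L libraries. The summed CPM of complex II, 435 and 386 at G0 against 348 and 496 at G14.5, overlapped.

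In the F1 head of ATP synthase, the part that makes ATP, 2 of 5 genes fell at G14.5. Atp5c1 (chromosome 2, 10056016 to 10080510), the central gamma shaft, had 90.5 and 98.9 CPM at G0, then 48.3 and 53.5 at G14.5, then 91.9 and 88.9 at P7L, and its fold change at G14.5 was -0.90 ± 0.17 (edgeR adjusted p = 0.0167). Atp5b (chromosome 10, 128083273 to 128090391), the catalytic beta subunit, had 104 and 92.8, then 58.4 and 60.4, then 69.9 and 81.5 CPM (-0.73 ± 0.18, edgeR adjusted p = 0.0404). In both genes the G14.5 libraries were the 2 lowest. Atp5a1, the alpha subunit, had 60.6 and 65.8 CPM at G0 and 38.8 and 48.6 at G14.5 (-0.54 ± 0.19, edgeR adjusted p = 0.117) and was not called.

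Together the 5 F1 genes summed to 292 and 312 CPM at G0, then 195 and 208 at G14.5, then 290 and 299 at P7L. The G14.5 libraries did not overlap with either other stage. Of the 5, 4 had a negative fold change, with Atp5d at 0.24, and 3 had G14.5 libraries wholly below G0, against 28.2% of all genes tested. The peripheral stalk, which holds the head in place, had a median log2 fold change of -0.09 over 4 genes, 0 of which were called.

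**Figure D2:**
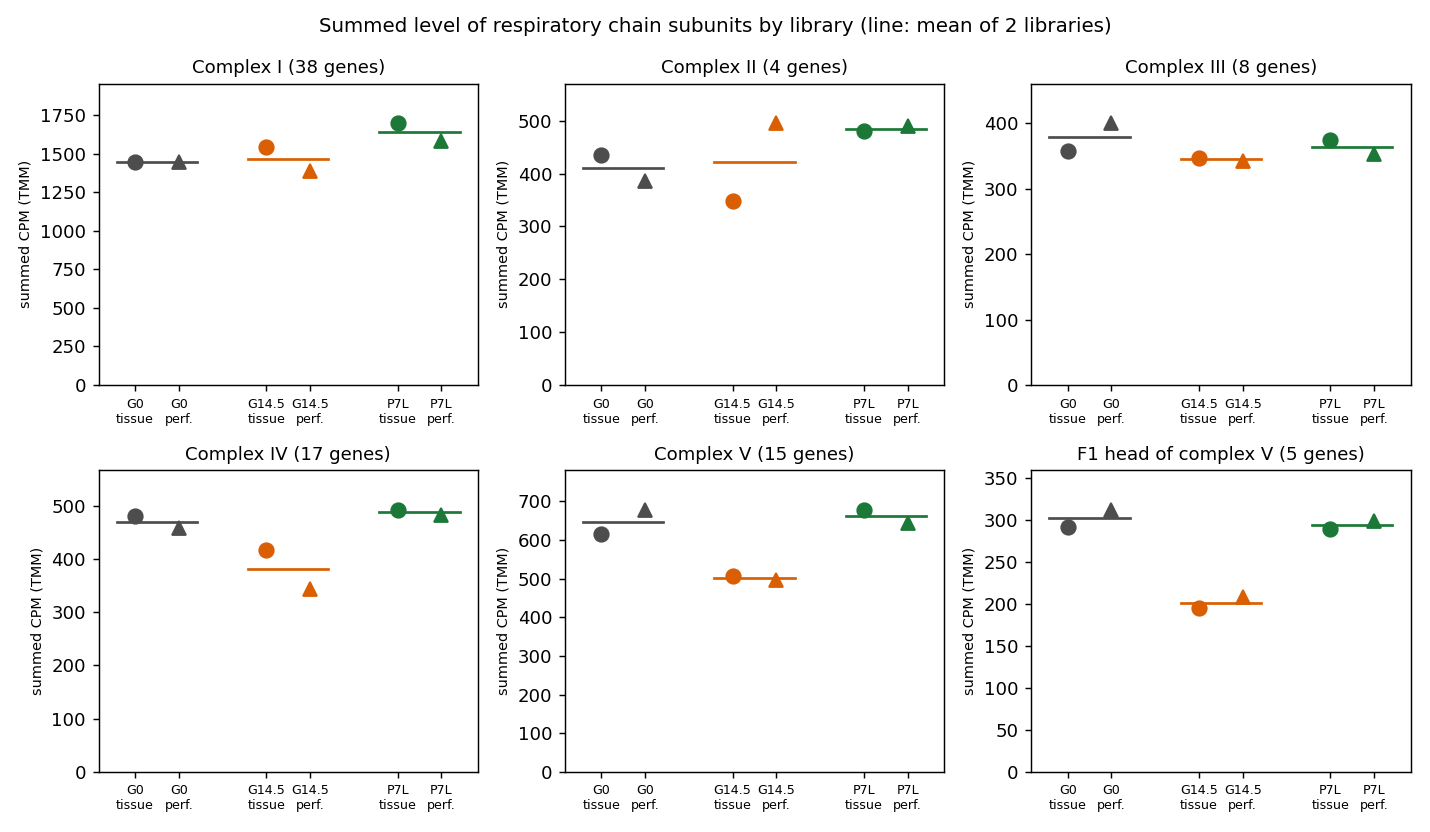
Summed CPM of the subunits of each complex, and of the F1 head, in each library; circles are liver tissue, triangles perfusion, lines the mean of 2 libraries. Complexes III, IV and V and the F1 head are lowest at G14.5 in both preparations. Complex III differs little, at 347 and 342 against 353 to 400 in the other libraries. The 2 G14.5 libraries of complex II lie apart at 348 and 496.

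Complex I showed 1 call among 37 tested subunits. Ndufa5 (chromosome 6, 24518666 to 24528013), an accessory subunit of the peripheral arm, had 25.6 and 25.5 CPM at G0, then 8.97 and 10.5 at G14.5, then 17.8 and 17.3 at P7L. In this CPM, summed over nuclei, the stages did not overlap, and the fold change was -1.40 ± 0.27 (edgeR adjusted p = 0.0199). Over single nuclei the median of Ndufa5 was 4.45 and 2.19, then 1.45 and 1.57, then 7.64 and 8.28 CPM. There P7L lay above G0, so the order of these stages depends on the summary used. The top 1% of nuclei held 13.8% and 28.8% of the Ndufa5 reads of the G0 libraries, and 9.96% and 9.74% at P7L. The NADH-binding subunit Ndufv1 had 25.5 and 23.2 CPM at G0 and 13.3 and 17.0 at G14.5 (-0.70 ± 0.26, edgeR adjusted p = 0.131), whereas Ndufs1, the large iron-sulfur subunit, had 113 and 107 and then 134 and 117. The median fold change over complex I was 0.01.

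In complexes III and IV 0 of 18 tested subunits were called at G14.5, with 5 at an unadjusted p under 0.05, all with negative fold changes, where 29.3% of all tested genes had such a p. The largest was Cox5a, a subunit of complex IV, at 38.0 and 28 CPM at G0, then 19.3 and 17.1 at G14.5, then 22.1 and 24.3 at P7L (-0.85 ± 0.26, edgeR adjusted p = 0.0759). The medians were -0.19 for complex III and -0.37 for complex IV. Complex IV summed to 482 and 460 CPM at G0 and 417 and 345 at G14.5, without overlap. Uqcrc1, a core protein of complex III, had 43.8 and 24.2 CPM at G0 and 28.2 and 28.9 at G14.5, and Uqcrfs1, the Rieske iron-sulfur protein, 34.2 and 46.0 and then 45.1 and 27.2, so both overlapped.

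Outside the subunits, the assembly factor Atp5sl (chromosome 7, 25619414 to 25625551) had 49.3 and 63.8 CPM at G0, then 22.7 and 22.9 at G14.5, then 57.9 and 60.8 at P7L. The G14.5 libraries were the 2 lowest, and the fold change was -1.30 ± 0.21 (edgeR adjusted p = 0.00996). Over all 78 members the median at G14.5 against G0 was -0.13, against -0.01 for all genes, with 48 negative (50.6% of all tested genes were). Scaling by library size alone put the 2 medians at -0.25 and -0.13.

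Fewer genes of all kinds were called when a G14.5 library was left out, which leaves 1 library in that arm, assumed to vary like the other groups. Without the G14.5 perfusion library 0 members and 6.16% of all genes were called at G14.5 against G0, and without the G14.5 liver tissue library 2 members and 4.4%. DESeq2 called 19 members, all 6 among them, and 22.8% of all genes. Ndufa5 was not called without either G14.5 library (-1.27 and -1.51, edgeR adjusted p = 0.142 and 0.0816), nor was Atp5c1 (-0.84 and -0.94, adjusted p = 0.12 and 0.0746), and Atp5sl was not without the perfusion one (-1.18, adjusted p = 0.0631). These fold changes stayed near those with all libraries.

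Sdhb, Atp5b and Sdhc were the calls most often lost. Sdhb was not called without either G14.5 library (-0.75 and -1.01, edgeR adjusted p = 0.214 and 0.0829), and without the G0 liver tissue library its fold change was -0.52 (adjusted p = 0.0808). Among the fits that left out 1 library, Atp5b stayed called only without the G0 perfusion library, with values of -0.57 to -0.73 and edgeR adjusted p of 0.0764 to 0.196 in the others. With looser filters on low counts, which test more genes, Sdhb (edgeR adjusted p = 0.0623 and 0.0683) and Atp5b (0.0669 and 0.0637) were not called. Sdhc was not called without either G0 library (0.92 and 0.93, edgeR adjusted p = 0.0503 and 0.0505), without the preparation term (0.96, adjusted p = 0.072) or with limma on the authors' values at a pseudocount of 1 (0.87, adjusted p = 0.0539).

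**Figure D3:**
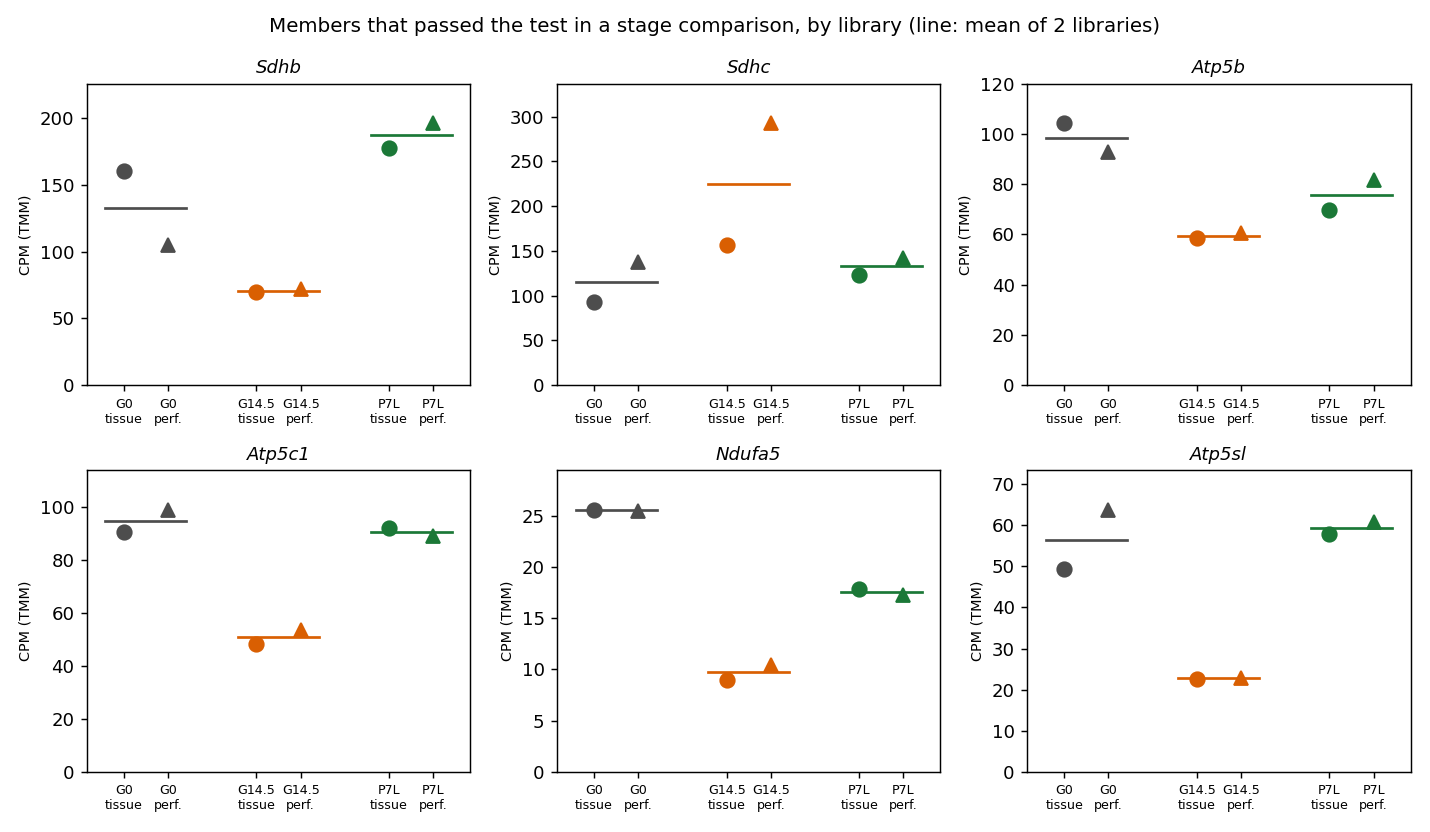
CPM in each library of the 6 members that passed the test in a stage comparison; circles are liver tissue, triangles perfusion, lines the mean of 2 libraries. In 5 genes both G14.5 libraries lie lowest, and in Sdhc they lie highest, with the perfusion library at 293.

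P7L was compared with G14.5 to ask what differs between late gestation and lactation. This comparison shares its G14.5 libraries with the one above, so a gene low in them is low in both. Of 78 members 3 rose and 0 fell (3.85%, with a background of 9.26% of all tested genes, 4.20% higher and 5.06% lower, and 8.26% of short ones). Sdhb rose by 1.41 ± 0.21 on the log2 scale (edgeR adjusted p = 0.0083), Atp5sl by 1.38 ± 0.21 (0.00803) and Atp5c1 by 0.83 ± 0.17 (0.0232). At P7L both Sdhb libraries lay above those of G0, while Atp5sl and Atp5c1 overlapped with G0. Sdhb was not called without the G14.5 liver tissue library (1.27, edgeR adjusted p = 0.0619) or the P7L perfusion library (1.18, adjusted p = 0.0906). Atp5sl was not without the G14.5 perfusion library (1.27, edgeR adjusted p = 0.057) or either P7L library (1.32 and 1.45, adjusted p = 0.0927 and 0.0715). Atp5c1 was not called without any one of the 4 libraries compared (0.74 to 0.93, edgeR adjusted p of 0.107 to 0.268). Leaving out the P7L perfusion library gave 0 called members, and leaving out either G14.5 library or the P7L library of liver tissue gave 1, where 2.85% to 4.76% of all genes were called. The counts were 5 and 6 without the G0 liver tissue and perfusion libraries, which belong to neither stage compared, with 15.6% and 16.5% of all genes called.

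Positive values were spread over all complexes. Of 78 members 63 had a positive fold change, with a median of 0.34, against 49.8% of all tested genes with a median of 0.00. The median was 0.26 for complex I, 0.49 for complex II, 0.30 for complex III, 0.36 for complex IV and 0.45 for complex V. Among all short tested genes the median was 0.06. The P7L libraries lay wholly above the G14.5 libraries for 45 members, against 28.5% of all tested genes, and wholly below for 5 (29.0%). Single genes were mostly under the threshold: 75 of 78 were not called. Scaled by library size alone, the medians were 0.54 for the members and 0.20 for all genes.

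Named members that were not called included Atp5j2, the f subunit of ATP synthase, and Ndufs7, the complex I subunit next to the quinone site. Atp5j2 had 34.5 and 43.6 CPM at G0, then 47.6 and 36.5 at G14.5, then 76.1 and 71.5 at P7L (0.82 ± 0.23 for P7L against G14.5, edgeR adjusted p = 0.0735). Its P7L libraries were the 2 highest. Ndufs7 had 19.0 and 22.3, then 11.8 and 15.5, then 22.9 and 25.1 CPM (0.82 ± 0.26, edgeR adjusted p = 0.104). Sdhc had a negative value (-0.69 ± 0.19, edgeR adjusted p = 0.0688).

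**Figure D4:**
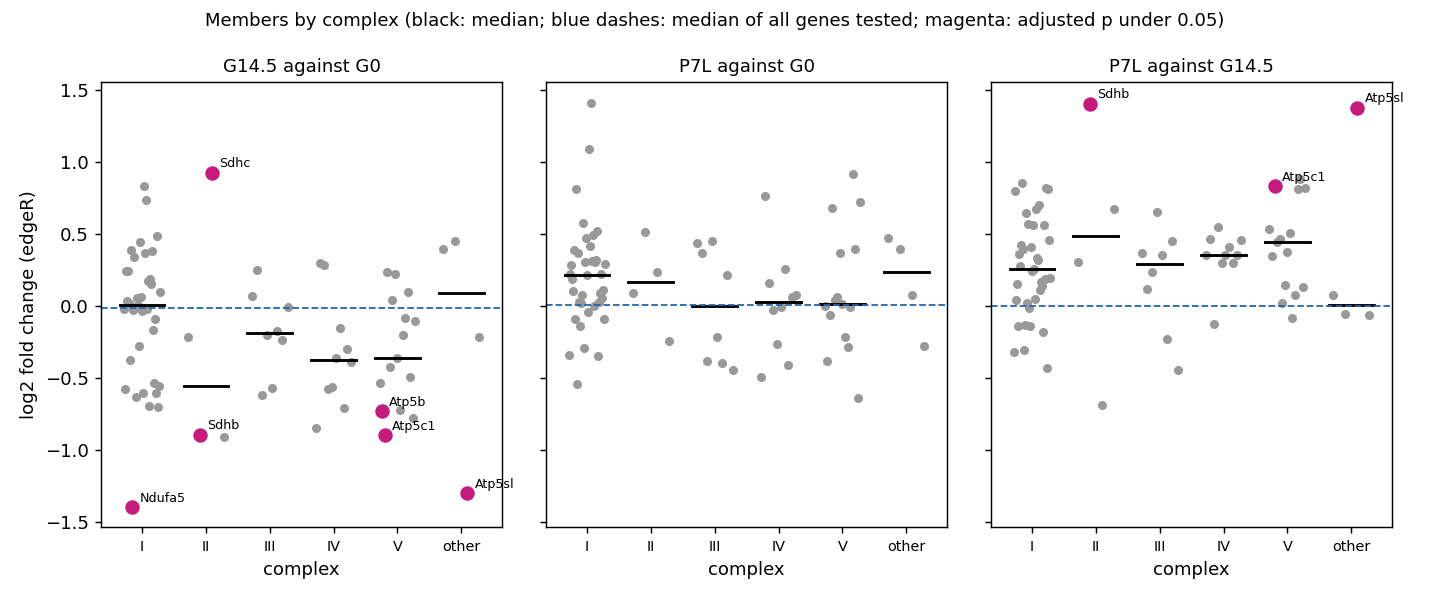
Log2 fold change of every tested member by complex for the 3 stage comparisons (edgeR); each point is 1 gene, black bars are medians, blue dashes the median of all tested genes, and named magenta points passed at an adjusted p under 0.05. Most points lie above 0 for P7L against G14.5, while at G14.5 against G0 the medians of complexes II to V lie below it.

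P7L against G0 asks whether lactating mothers differ from day 0. With edgeR 0 of 78 members were called (background 2.92%, and 3.14% of short genes), 8 had an unadjusted p under 0.05 (21.2% of all tested genes did), and DESeq2 called 4 (12.7% of all). Without the G0 liver tissue library edgeR called 1 (Sdhb, with 4.5% of all genes called) and without the G0 perfusion library 2 (Atp5j2 and Ndufs3, with 3.77%). The DESeq2 calls were Atp5j2, Cox5b, Ndufb6 and Ndufb8. The values below are those of members with the largest differences among those where each library of the higher stage had 20 CPM or more. Ndufb8 (1.415 ± 0.392, edgeR adjusted p = 0.101) and Ndufb6 (1.094 ± 0.288, adjusted p = 0.0888) lay under that level and had larger fold changes than any of these. Atp5j2 had a fold change of 0.92 ± 0.23 (edgeR adjusted p = 0.0826). Cox5b, a zinc-binding subunit of complex IV, had 32.4 and 32.4 CPM at G0, then 41.4 and 38.3 at G14.5, then 50.3 and 60.2 at P7L (0.77 ± 0.21, edgeR adjusted p = 0.0969). In Atp5j2 and Cox5b the P7L libraries lay above all others.

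Other named members of this comparison were further from the threshold. Atp5d, the delta subunit of the F1 head, had 25.5 and 40.9 CPM at G0 and 50.0 and 55.3 at P7L (0.68 ± 0.27, edgeR adjusted p = 0.205). Ndufb10, an accessory subunit of complex I, had 14.9 and 25.3 and then 28.2 and 30.6 (0.58 ± 0.28, edgeR adjusted p = 0.286). Atp5l went the other way, with 44.2 and 62.0 and then 39.1 and 29.6 (-0.64 ± 0.28, edgeR adjusted p = 0.239). In these 3 genes G0 and P7L did not overlap. Over all members P7L lay wholly above G0 for 27 and wholly below for 12, against 27.8% and 27.0% of all tested genes. The median over members was 0.09, against 0.01 for all genes and 0.16 for short genes. Fold changes were positive for 29 of 37 complex I subunits, 0 of which were called, and for 7581 of 15015 tested genes. In complexes II to V they were positive for 3 of 4, 4 of 8, 5 of 10 and 8 of 15 subunits.

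Per nucleus the chain took the largest share of reads at P7L. With every nucleus thinned to 250000 reads, the G0 libraries had a median share of 0.314% and 0.313% in the 82 subunits, those of G14.5 had 0.300% and 0.275%, and P7L had 0.397% and 0.382%. These shares carry no scaling for composition. In CPM after TMM the 82 subunits summed to 3336 and 3368 at G0, then 3163 and 3065 at G14.5, then 3726 and 3553 at P7L, in the same order with a smaller distance between P7L and G0. The lower quartile of the shares at P7L (0.331% and 0.297%) was near the median of the other stages. The median number of subunits with a read was 46 and 44, then 47 and 46, then 58 and 58. Genes of all kinds with a read were also more numerous at P7L, with medians of 5653 and 5397, then 6009 and 6034, then 6707 and 6746. Per 1000 genes with a read there were 8.13 and 8.20, then 7.74 and 7.61, then 8.40 and 8.56 subunits. The part of the wider gene detection in the count of subunits was not tested.

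Sdhb and Atp5sl were also read in most nuclei at P7L, where genes of all kinds were detected more widely. This was not particular to them. Atp5b, with fewer CPM at P7L than at G0, had a read in 97.3% and 99.0% of thinned P7L nuclei. At G0 the values for Atp5b were 94.9% and 88.4%. Sdhb had a read in 85.7% and 90.1% of thinned G0 nuclei, 78.6% and 86.7% of those of G14.5, and 98.3% and 99.3% of those of P7L. Its median over nuclei was 51.4 and 47.7, then 27.1 and 33.7, then 113 and 136 CPM before thinning. Atp5sl had a read in 67.1% and 64.6%, then 50.4% and 50.7%, then 91.2% and 90.9% of nuclei. Medians of Sdhb and shares of Atp5sl were lowest in the 2 G14.5 libraries, and the share of Sdhb in G14.5 perfusion overlapped with G0. For Sdhc the medians over nuclei were 56.0 and 59.2, then 108 and 186, then 95.1 and 106 CPM, and the top 1% of G14.5 nuclei held 3.67% and 6.62% of its reads. The top 1% of nuclei held 9.56% to 25.8% of the Sdhb reads of a library and 9.25% to 27.5% of those of Atp5sl, both highest in G14.5 liver tissue.

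**Figure D5:**
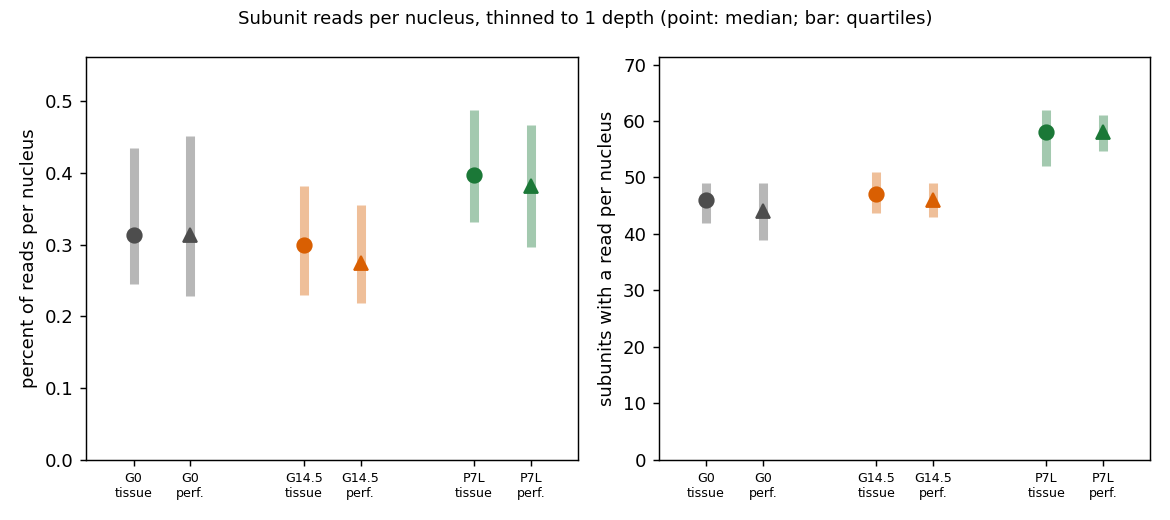
Left, percent of a nucleus's reads in the 82 subunits; right, number of subunits with a read; each nucleus thinned to 250000 reads, points are medians and bars the quartiles over nuclei of 1 library. Both P7L medians, 0.397% and 0.382% of reads and 58 subunits, lie above those of the other 4 libraries.

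Between preparations 0 of 78 members were called by edgeR and by DESeq2, against 0% and 0.579% of all tested genes. With edgeR 3 members had an unadjusted p under 0.05 (4.71% of all genes did). They were Sdhc (0.56 ± 0.15 higher in perfusion), Ndufa4 (-0.47 ± 0.17) and Ndufa1, a small membrane subunit of complex I (-0.63 ± 0.22), each with an edgeR adjusted p of 0.971. Ndufa4 had 65.9, 53.6 and 55.3 CPM in liver tissue and 45.7, 33.4 and 47.7 in perfusion, without overlap. Ndufa1 had 26.1, 24.4 and 23.5 against 17.9, 18.6 and 12.3, also without overlap. In all, 5 members were wholly lower in perfusion, against 2.76% of all tested genes. Sdhc was higher in perfusion at every stage. Next by p were Ndufb2 of complex I (-0.46 ± 0.19) and the pseudogene Atp5l2-ps (-0.94 ± 0.46), which had under 1 CPM in every library.

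Genes around the chain were read from lists by role. Of 38 tested assembly factors, 3 rose at G14.5 against G0 (7.89%) and 2 rose at P7L against G0 (5.26%). At P7L against G14.5, 2 rose and 1 fell (7.89%). Of all tested genes 11.9%, 2.92% and 9.26% were called in these comparisons. Cox19, a copper-handling factor for complex IV, had 30.6 and 23.4 CPM at G0, then 66.3 and 60.3 at G14.5, then 56.0 and 62.6 at P7L (1.24 ± 0.21 at G14.5 against G0, edgeR adjusted p = 0.0137). Ndufaf2, an assembly factor of complex I, had 25.3 and 22.6, then 56.4 and 52.1, then 29.5 and 23.6 CPM (1.18 ± 0.22, edgeR adjusted p = 0.0156). Ndufaf4, another, was highest in the P7L libraries, at 105 and 102 CPM against 36.1 to 51 elsewhere (1.26 ± 0.21 for P7L against G0, edgeR adjusted p = 0.0313).

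Among 21 tested genes for the transcription of mitochondrial and respiratory genes, 2 fell and 1 rose at G14.5 against G0 (14.3%, with 11.9% of all tested genes). At P7L against G0, 0 were called (with 2.92%), and 4 rose at P7L against G14.5 (19.0%, with 9.26%). Ppargc1b, the gene of the coactivator PGC-1 beta, had 219 and 163 CPM at G0, then 34.2 and 41.1 at G14.5, then 177 and 200 at P7L (-2.35 ± 0.21 at G14.5 against G0, edgeR adjusted p = 0.00111). Ppargc1a, the gene of PGC-1 alpha, had 239 and 221, then 135 and 150.0, then 308 and 247 CPM (-0.69 ± 0.15, edgeR adjusted p = 0.0306). Both were lowest in the 2 G14.5 libraries. Esrra, the gene of ERR alpha, had 39.7 and 33.5, then 21.4 and 23.4, then 56.9 and 55.1 CPM, and rose at P7L against G14.5 by 1.32 ± 0.22 (edgeR adjusted p = 0.0119). Lrpprc, which stabilises mitochondrial mRNAs, was the 4th gene that rose there (0.73 ± 0.17, edgeR adjusted p = 0.0418). Tefm, a mitochondrial elongation factor, was the gene that rose at G14.5 (1.24 ± 0.28, edgeR adjusted p = 0.0305).

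The tricarboxylic acid cycle feeds NADH and succinate into the chain. The list read for it also holds Pdha1, Pdhb, Dlat, Pdhx, Pcx and Pck2, which are not enzymes of the cycle itself. Of the 20 tested genes of this list 4 fell, Pdhb among them, and 1 rose at G14.5 against G0 (25%, with 11.9% of all tested genes). At P7L against G0, 0 were called (with 2.92%). Dlst, a subunit of 2-oxoglutarate dehydrogenase, had 110.0 and 83.5 CPM at G0, then 42.7 and 53.5 at G14.5, then 97.1 and 108 at P7L. Suclg1, the alpha subunit of succinyl-CoA ligase, had 81.6 and 96.4, then 50.5 and 54.2, then 92.2 and 106. Both were lowest at G14.5 and were called in both comparisons with that stage. Pdhb and Idh3g fell at G14.5, Sucla2 rose, and Fh1 rose at P7L against G14.5.

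Among 8 tested carriers and related genes, 2 were called at G14.5 against G0 (25%) and 1 at P7L against G14.5 (12.5%). Of all tested genes 11.9% and 9.26% were called. Slc25a3, the mitochondrial phosphate carrier that supplies ATP synthase, had 159 and 176 CPM at G0, then 85.7 and 76.5 at G14.5, then 168 and 188 at P7L (-1.05 ± 0.15 at G14.5 against G0, edgeR adjusted p = 0.00761, and 1.13 ± 0.15 at P7L against G14.5, adjusted p = 0.00576). Ucp2, an uncoupling protein, rose from 1.17 and 2.63 CPM to 17.5 and 14.3 (3.19 ± 0.48, edgeR adjusted p = 0.00824). Of 22 tested electron carriers and entry points, 2 were called at G14.5 against G0 (9.09%), 1 at P7L against G0 (4.55%) and 3 at P7L against G14.5 (13.6%), with 11.9%, 2.92% and 9.26% of all tested genes. Etfdh, which passes electrons from fatty acid oxidation to coenzyme Q, rose at G14.5 (0.81 ± 0.16, edgeR adjusted p = 0.0208) and Coq3 of coenzyme Q synthesis fell (-0.62 ± 0.16, adjusted p = 0.0477). Etfa fell at P7L against G0, and at P7L against G14.5 Coq10b rose while Gpd2 and Coq10a fell.

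The ribosomal lists hold other short genes. Of 79 tested cytosolic ribosomal protein genes 3 rose and 0 fell at G14.5 against G0 (3.80%). At P7L against G0, 0 were called, and 1 fell at P7L against G14.5 (1.27%). Of all tested genes 11.9%, 2.92% and 9.26% were called. The median over the cytosolic genes was -0.03 at P7L against G14.5. Of 72 tested mitochondrial ribosomal protein genes 1 fell at G14.5 and rose at P7L against G14.5 (1.39% in each). It was Mrps36, which is also described as a part of the 2-oxoglutarate dehydrogenase complex. The median over the 72 genes was 0.07 at P7L against G14.5, against 0.34 for the respiratory chain members.

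The promoter letters were set beside the fold changes as a description. The 13 tested subunits with the NRF1 letters had a median of 0.37 at P7L against G0, and the 49 matched subunits without them 0.06. At P7L against G14.5 the medians were 0.37 and 0.36. The 8 with the ERR letters had a median of -0.51 at G14.5 against G0, and the other 54 had -0.13. Of these 8, 0 were called in any comparison. Their medians were 0.04 against 0.10 at P7L against G0 and 0.49 against 0.36 at P7L against G14.5. At G14.5 against G0 the medians with and without the letters were -0.01 and -0.20 for NRF1, -0.22 and -0.16 for ETS. They were -0.09 and -0.20 for YY1 and -0.21 and -0.13 for CCAAT. These differences were not tested. Of the called subunits with a window, Sdhb held the NRF1, ETS and CCAAT letters, Atp5b and Atp5c1 held CCAAT alone, and Ndufa5 none of the 5 motifs.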

How the data were processed

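Raw read counts per gene and nucleus were deposited by the authors, per the submitters' processing notes by trimming with Trimmomatic 0.39, alignment to GRCm38 with HISAT2 2.1.0 and counting in featureCounts 1.5.3; strand setting and annotation release are not given in the sources used here. The second table deposited by the authors holds TPM-like values, scaled to 100000 per nucleus without Alb, Apoa2 and Fabp1, as worked out from the values.

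Counts were summed per library and fitted with edgeR 4.0.16 (R 4.3.3; quasi-likelihood F test, robust, TMM, terms for stage and preparation, 2 residual degrees of freedom), and p-values were adjusted by Benjamini-Hochberg, two-sided. A gene was tested if filterByExpr kept it and 5% of nuclei had a read in at least 2 libraries. The standard error was taken as the fold change divided by the square root of F. All 1567 nuclei were kept and no doublet caller was run; thinning left out 35 nuclei. Gene positions and lengths are from GENCODE M21, and promoter windows from RefSeq; Atp5o, with 2 M21 identifiers, has no length here. Reads are not independent molecules.

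Called members, the 5 largest changes among members where each library of the higher stage had 20 CPM or more, the leaders per length, the catalytic subunits, isoform families and up to 4 genes per list were named. Ndufb8 and Ndufb6, under that level, were added for P7L against G0. Members and lists were chosen with earlier results of these data known. On 5 simulated sets per comparison with 200 changed genes among 15015, edgeR recovered 59.8% of 4-fold and 25% of 2-fold changes for G14.5 against G0, with 24 false among 448 calls. For P7L against G0 it recovered 63.2% and 25% (44 of 485 false), and for P7L against G14.5 60% and 24.4% (42 of 464). Alternatives used DESeq2 1.42.0 and limma 3.58.1.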

Additional observations from a re-analysis of the deposited data

Results flagged for a closer look

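Summed CPM of some complexes moved in opposite directions in the 2 preparations. The values are log2 ratios of 1 library to 1 library, so the difference between preparations was not tested. At G14.5 against G0, complex I had 0.095 in liver tissue and -0.058 in perfusion, and complex II -0.322 and 0.363. The complex II libraries differ most in Sdhc, at 156 CPM in G14.5 liver tissue and 293 in G14.5 perfusion. At P7L against G0, complex III had 0.068 in liver tissue and -0.183 in perfusion, and complex V 0.141 and -0.073. At P7L against G14.5, complex II had 0.467 in liver tissue and -0.020 in perfusion.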

How the results depend on the processing

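None of the 9 called changes of single members reversed under the 15 alternatives run for each. The alternatives reuse the same 6 libraries, and those compared did not overlap in any of the 9. A reversal was therefore unlikely from the start, and its absence is not further support. At G14.5 against G0, where 6 members were called, DESeq2 called 19 (22.8% of all tested genes). Limma on the authors' values with a pseudocount of 0.1 called 15 (11.5%). Both looser filters gave 4, without Sdhb and Atp5b (5.73% of all genes with no filter and 7.05% with filterByExpr alone). At P7L against G0, with 0 called, DESeq2 called 4 (12.7% of all tested genes). Thinned nuclei gave 1 (4.74%) and limma with a pseudocount of 0.1 gave 1 (1.37%). At P7L against G14.5, with 3 called, library size alone gave 5 (10.6% of all tested genes) and DESeq2 12 (17.5%). Limma gave 5 (6.65%) and 9 (8.64%) with pseudocounts of 1 and 0.1. Between preparations every alternative run gave 0, where DESeq2 called 0.579% of all tested genes. Without the replicate block, the term for preparation, the counts were 5 (Sdhc was lost), 0 and 4, and 0 for the preparations. Of all tested genes 14%, 3.85%, 10.6% and 0% were called there. Replicate numbers were assigned here by preparation, since the labels give none, and pair no animals. Sdhb at G14.5 against G0 was called in 10 of 15 alternatives, Atp5b in 8, Sdhc in 10, Atp5c1 and Ndufa5 in 13 and Atp5sl in 14. At P7L against G14.5 Sdhb was called in 13, Atp5sl in 12 and Atp5c1 in 11. In simulated data with 200 changed genes among 15015, 24.4% to 25% of 2-fold changes were recovered in the stage comparisons. More genes were called in the real comparisons, which loosens the cut-off of the adjustment, so recovery there may differ. A member not called is still not shown to be level. The cause of the differences between tools was not tested.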
